A study of Danio rerio with 21 samples.

Results

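The data describe 150 zebrafish genes whose RNA 1 day after cryoinjury of the heart was highest relative to resection and sham of the same day. A gene's level is given as CPM, which is its read count over the total count of the library, times 1e+06. Genes were ranked by the lower of the 2 cryoinjury CPM values plus 1, divided by the highest CPM plus 1 among the 3 resection and 3 sham libraries of the same day. The 150 genes with the highest ratio were taken from 31937 genes ranked, of 31952 with counts, and were selected on their CPM at 1 day post-injury (dpi), and those values are given here as a description with no test. Cryoinjury damages the ventricle with a frozen probe and leaves dead tissue in place, ventricular resection removes the apex, and sham surgery exposes the ventricle without injury. RNA came from nuclei of adult zebrafish, which the study's methods give as 4 to 12 months old, of a strain with the allele ox133. It carries the BAC transgene mpeg1:BirA-Citrine, in which the promoter of a macrophage gene drives a biotin ligase. With it comes bactin:Avi-Cerulean-Rangap, in which a ubiquitous promoter drives an Avi-tagged nuclear envelope protein, so nuclei of cells in which mpeg1 is active can be pulled down with streptavidin. All 8 groups, shams included, carry both. At 1 dpi there were 2 cryoinjury, 3 resection and 3 sham libraries, at 5 dpi 2 of each, and at 14 dpi 3 cryoinjury and 4 sham libraries. The study's methods give 1 heart per sample, and some libraries are labelled as merged. The 3 cryoinjury libraries and 1 sham of 14 dpi are labelled round 2 and the other 3 shams round 1. The labels do not say what a round was.

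Macrophages enter the injured zebrafish heart early, engulf dead cells and break them down in lysosomes with cathepsins and other proteases. They also release chemokines that draw in further leukocytes and growth factors that act on vessels and on the tissue under repair. Ribosomal protein and translation genes, which are also among the 150, are transcribed in every cell type.

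The depth was 10577395 to 61141100 counts a library, in which 12608 to 21742 genes were detected, and a library at 0 for a gene could still hold up to 3 counts, or 0.0491 to 0.284 CPM, by counting error alone. The labelled macrophages were checked on marker genes. A macrophage marker list, of which 26 of 28 genes were detected after cryoinjury, 28 after resection and 26 in sham, summed to 1415 and 846 CPM in the cryoinjury libraries at 1 dpi, against 1615 to 2756 CPM after resection and 182 to 532 CPM in sham. The MPEG1 gene ENSDARG00000055290 had 2.70 and 20.0 CPM after cryoinjury, against 15.3 to 32 CPM after resection and 0.867 to 3.29 CPM in sham, and the MPEG1 genes ENSDARG00000043093 and ENSDARG00000078569 were at 0 in both cryoinjury libraries. Cardiomyocyte markers, for which 19 of 31 listed symbols were found, summed to 60068 and 66015 CPM after cryoinjury, 54890 to 69485 CPM after resection and 104990 to 125065 CPM in sham, so RNA of heart muscle was abundant in all 8 libraries of that day. Cryoinjury replicate 2 stood apart in fast skeletal muscle markers, with 37851 CPM, against 4136 CPM in replicate 3, 5817 to 7729 CPM after resection and 8594 to 11968 CPM in sham. The gene ckma of this list held much of the lower sums. It had 7299 CPM in replicate 2, 2261 CPM in replicate 3, 2935 to 3452 CPM after resection and 5757 to 8421 CPM in sham. Epidermis and epithelial markers summed to 8542 and 3483 CPM after cryoinjury, 9187 to 15204 CPM after resection and 1096 to 4175 CPM in sham. Of these, the keratin gene krt5 had 1853 and 650 CPM after cryoinjury, against at least 2061 CPM after resection and at most 0.986 CPM in sham. The keratin gene krt4 of the same list did not separate the groups. It had 1943 and 736 CPM after cryoinjury, 700 to 1661 CPM after resection and 299 to 1657 CPM in sham. The part of these differences in the results was not tested. In these bulk nuclei, fewer cells of a type and less RNA per cell cannot be told apart.

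The ratio that ranks the genes was 7.20 for myhz1.1 at the top, 3.30 at rank 10, 1.68 at rank 50 and 1.2 at rank 150. It was at least 2 for 31 genes and at least 1.5 for 69. The last genes inside were zgc:165603, the phosphatase gene DUSP2 with 44.0 and 28.4 CPM after cryoinjury against at most 23.2 CPM in the other libraries, and METTL21EP with 0.603 and 1.78 CPM against at most 0.336 CPM. The first genes outside were RPS26 with a ratio of 1.196, with 237 and 283 CPM against at most 198 CPM, then si:ch1073-263o8.2 and dnah5l. The nearest library among the others was a resection for 100 genes and a sham for 50. The lower cryoinjury value was that of replicate 3 for 103 genes and of replicate 2 for 47. The median ratio of the higher to the lower cryoinjury library was 1.5, and it exceeded 2 for 47 genes. The lower cryoinjury value was over 100 CPM for 23 genes, over 10 CPM for 103 and under 1 CPM for 12. All 3 shams were at 0 for 24 genes. The list depends on the individual libraries: with replicate 2 left out 27 of the 150 genes stayed among the top 150, and with replicate 3 left out 13 stayed. Leaving out sham replicate 1 kept 88.

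**Figure D1:**
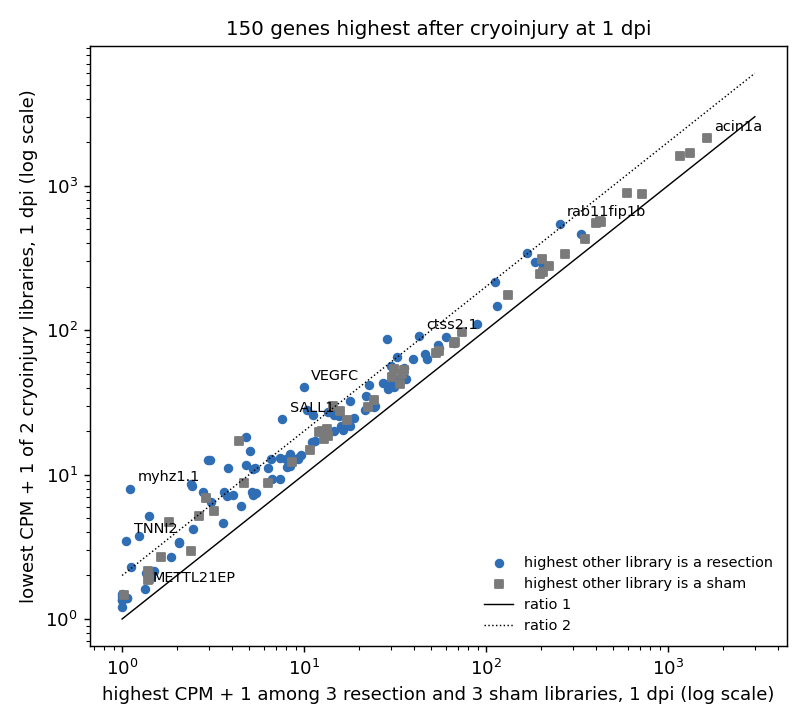
Each point is 1 of the 150 genes at 1 dpi. The y axis gives the lower CPM + 1 of the 2 cryoinjury libraries and the x axis the highest CPM + 1 of the 3 resection and 3 sham libraries, both on log scales, with circles where that library is a resection and squares where it is a sham. All points lie above the solid line of ratio 1 by the choice of genes, and 31 lie on or above the dotted line of ratio 2.

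Of the 150 genes, 5 encode lysosomal proteins. They and the other groups by role below were formed from the 150 after the values were seen, so they say nothing of other genes of the same role. The cathepsins ctss2.1, ctsla and CTSD, the lysosomal endopeptidase gene LGMN and grna, which encodes a progranulin taken up into lysosomes, summed to 1307 and 1171 CPM after cryoinjury at 1 dpi, against 464 to 588 CPM after resection and 105 to 224 CPM in sham. All 5 were higher in both of these cryoinjury libraries than in any of the other 19 libraries of the series. So were 55.3% of the 150 genes, against 0.59% of all genes, and the rule used some of these libraries. ctss2.1 had 117 and 90.1 CPM after cryoinjury, 27.8, 41.7 and 25.9 CPM after resection, and 0.176, 13.5 and 0.135 CPM in sham. CTSD had 282 and 330 CPM after cryoinjury, 144, 206 and 157 CPM after resection, and 23.1, 40.2 and 59.9 CPM in sham. For both genes the 3 groups were stacked without overlap in the order cryoinjury, resection, sham. LGMN had 408 and 343 CPM after cryoinjury, 92.0, 101 and 168 CPM after resection, and 25, 67.0 and 28.9 CPM in sham. ctsla had 426 and 296 CPM after cryoinjury, 151, 186 and 142 CPM after resection, and 55.0, 67.3 and 95.3 CPM in sham. grna had 74.0 and 112 CPM after cryoinjury, 48.8, 53.8 and 42.5 CPM after resection, and 1.76, 35.7 and 8.02 CPM in sham. The same order held for all 3, so resection lay between cryoinjury and sham for each of the 5 genes. The choice of genes sets cryoinjury on top. Every resection exceeded every sham for 32% of the 150 genes and for 34.5% of all genes. The mean of ctss2.1 after cryoinjury was 3.26-fold that of resection and 22.5-fold that of sham, and that of CTSD was 1.81-fold and 7.45-fold. grna is also 1 of the 28 genes of the macrophage marker list.

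Of 11 genes of immune signalling and the leukocyte surface, 7 were above all other 19 libraries of the series in both cryoinjury libraries at 1 dpi. Over the 150 genes, which were chosen on part of these libraries, 55.3% were, against 0.59% of all genes. Together the 11 summed to 641 and 407 CPM after cryoinjury, 167 to 249 CPM after resection and 58.9 to 95.7 CPM in sham. SLC7A7, an amino acid transporter subunit of macrophages, had 154 and 54.1 CPM after cryoinjury, 22.1, 17.6 and 34.6 CPM after resection, and 0, 0.0491 and 0.542 CPM in sham. cd9b, a tetraspanin of the cell surface, had 60.5 and 41.2 CPM after cryoinjury, 10.1, 16.7 and 27.9 CPM after resection, and 0, 0 and 0.433 CPM in sham. Both were nearly undetected in sham. il15ra, the receptor chain that presents interleukin-15, had 32.9 and 11.9 CPM after cryoinjury, 3.27, 5.6 and 2.29 CPM after resection, and 0.106, 0 and 0 CPM in sham. The chemokine gene ccl35.1 had 42.3 and 10.2 CPM after cryoinjury, 3.76, 2.02 and 4.35 CPM after resection, and 0, 2.60 and 2.87 CPM in sham. havcr1, of the TIM family of receptors that bind phosphatidylserine, had 52.3 and 45.2 CPM after cryoinjury, 23.0, 30.1 and 21.5 CPM after resection, and 0, 17.6 and 0.217 CPM in sham. The 2 cryoinjury libraries were close for havcr1 and far apart for ccl35.1. lsp1a, an actin-binding protein of leukocytes, had 88.4 and 89.1 CPM after cryoinjury, 22.4, 59.5 and 52.1 CPM after resection, and 31.9, 16.5 and 10.3 CPM in sham. The adaptor gene sh3bp2, the kinase gene PRKCQ and the perforin gene prf1.5 had means 3.62-fold, 6.53-fold and 3.46-fold those of resection. TNIP1, whose product restrains NF-kB signalling, had 90.4 and 80.5 CPM after cryoinjury against at most 65.7 CPM in the other 1 dpi libraries, and the group also holds DUSP2, given above beside rank 150. ccl35.1 was the only member among 41 genes of a list of chemokines and other inflammatory mediators, and 3 of the 28 macrophage markers were members (SLC7A7, grna and havcr1). DUSP2 was the only member of a list of stress genes, prf1.5 of a list of blood and lymphocyte markers. No member was found on the lists of IL-6 family genes, cytokine and innate receptors, matrix genes, cell cycle, neutrophil, epidermis, cardiomyocyte, fibroblast and epicardial or endothelial and endocardial genes. Several lists were matched only in part. Symbols were found for 39 of 52 matrix, 14 of 24 fibroblast and epicardial and 40 of 54 stress genes listed. A listed gene that was not matched could not be counted as a member.

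Among growth and developmental signals, VEGFC, a growth factor of lymphatic vessels, ranked 4th with 42.2 and 39.3 CPM after cryoinjury, 9.00, 6.22 and 8.29 CPM after resection, and 7.78, 3.07 and 3.22 CPM in sham. The cryoinjury mean was 5.2-fold that of resection and 8.69-fold that of sham, and the cryoinjury replicates differed by less than either gap. SALL1, a zinc finger transcription factor gene, had 55.9 and 23.2 CPM after cryoinjury, 6.60, 3.98 and 2.53 CPM after resection, and 0 CPM in all 3 shams. Its cryoinjury mean was 9.06-fold that of resection and at least 503-fold higher than sham, taking 3 counts per library as the floor. The signalling ligand gene wnt3 had 4.57 and 2.41 CPM after cryoinjury, 0.308, 0.672 and 1.06 CPM after resection, and 0 CPM in all shams. All 3 were above the other 19 libraries of the series, as were 55.3% of the 150 genes and 0.59% of all genes.

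Genes of vesicle traffic and the actin cytoskeleton were among the members with many counts. rab11fip1b, which encodes a partner of Rab11 in the recycling of endosomes, had 721 and 544 CPM after cryoinjury, 96.2, 253 and 126 CPM after resection, and 203, 59.0 and 38.3 CPM in sham. pfn1, the actin-binding profilin, had 744 and 463 CPM after cryoinjury, 329, 279 and 332 CPM after resection, and 183, 286 and 125 CPM in sham. In rab11fip1b resection and sham overlapped. c1ql1, a secreted protein with a C1q domain, had 77.8 and 78.8 CPM after cryoinjury, 41.4, 53.3 and 25.3 CPM after resection, and 6.37, 6.17 and 11 CPM in sham. hspb9, a small heat shock protein gene, had 192 and 67.7 CPM after cryoinjury, 45.1, 1.51 and 4.41 CPM after resection, and 0.387, 4.69 and 22 CPM in sham. fkbpl, an FK506-binding protein-like gene, had 31.9 and 26.1 CPM after cryoinjury, 7.03, 12.6 and 9.46 CPM after resection, and 8.03, 0 and 0 CPM in sham.

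Ribosomal protein genes made up 11 of the 150. Their levels summed to 8113 and 6533 CPM after cryoinjury at 1 dpi, 2184 to 2713 CPM after resection and 2805 to 4982 CPM in sham. For each of these genes resection had the lowest group mean of that day, but in some its libraries overlapped the shams. RPL31 had 299, 368 and 195 CPM after resection and 402, 273 and 282 CPM in sham. RPS10 had 359, 358 and 340 CPM after resection and 596, 311 and 394 CPM in sham. In RPS29 and RPS28 they did not overlap. RPS29 had 273 and 242 CPM after cryoinjury, 28.9, 35.9 and 22 CPM after resection, and 198, 90.1 and 51.8 CPM in sham. RPS28 had 644 and 424 CPM after cryoinjury, 84.1, 97.2 and 67.3 CPM after resection, and 349, 265 and 132 CPM in sham. The cryoinjury mean of RPS29 was 8.90-fold that of resection and 2.28-fold that of sham. The other 72 named ribosomal protein genes, listed after the values were seen, summed to 74158 and 56412 CPM after cryoinjury, 29727 to 36379 CPM after resection and 36526 to 63380 CPM in sham. In 67 of these 72 both cryoinjury libraries exceeded all 3 resections, against 2.96% of all genes detected in these libraries. In 21 they exceeded all resections and shams, as they did in 384 of the 31937 genes ranked. The summed cryoinjury range overlapped that of sham. Ribosomal protein genes have near-identical copies elsewhere in the genome, so reads of a single gene are uncertain.

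The translation initiation factor genes EIF1, EIF3J and EIF4E summed to 554 and 487 CPM after cryoinjury, 172 to 242 CPM after resection and 198 to 367 CPM in sham. Of the RNA processing genes, 11 were members, and acin1a, a splicing-associated gene, held most of their counts. It had 2143 and 2599 CPM after cryoinjury, 779, 1247 and 881 CPM after resection, and 1627, 406 and 522 CPM in sham. In acin1a, as in rab11fip1b, sham replicate 1 was the highest sham. NSUN3, an RNA methyltransferase gene, had 13.5 and 14.3 CPM after cryoinjury, 4.07, 1.74 and 0.176 CPM after resection, and 0 CPM in every sham.

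Some highly ranked members are known from other tissues. The fast skeletal muscle genes myhz1.1 and TNNI2, a myosin heavy chain and a troponin gene, ranked 1st and 10th. myhz1.1 had 11 and 7.0 CPM after cryoinjury, 0.0617, 0.112 and 0 CPM after resection, and 0 CPM in all shams. TNNI2 (ENSDARG00000029069) had 2.48 and 5.58 CPM after cryoinjury, at most 0.0560 CPM after resection and 0 CPM in all shams. myhz1.1, myhz1.3 and TNNI2 were 3 of the 47 fast skeletal muscle markers, all 47 of which were detected in at least 1 cryoinjury library at 1 dpi, against 45 in resection and 26 in sham. The sum of this list was far higher in cryoinjury replicate 2, whereas TNNI2 had its higher value in replicate 3. Both genes lie in families of near-identical copies, so their counts are uncertain. For this list 46 of 55 symbols were found, and the striated muscle member MYL11, of rank 118, was not among the genes matched. Its mean was 0.635 CPM after cryoinjury, 0.0196 CPM after resection and 0 CPM in sham. ANKRD1, a stress-responsive gene of heart muscle, had 215 and 337 CPM after cryoinjury, 111, 9.19 and 29.8 CPM after resection, and 0.0352, 44.6 and 85.9 CPM in sham. The neuronal genes eno2, STMN4, NEFL and GRIN2B summed to 64.6 and 30.0 CPM after cryoinjury, 2.47 to 11.4 CPM after resection and at most 3.06 CPM in sham. STMN4 had 35.4 and 7.32 CPM after cryoinjury, at most 1.42 CPM after resection and at most 0.916 CPM in sham. The liver plasma protein genes f2, which encodes prothrombin, and apoc1, an apolipoprotein, had 10.0 and 1.29 CPM and 2.87 and 1.16 CPM after cryoinjury and 0 CPM in all shams. SYCP1, a component of the synaptonemal complex of meiotic chromosomes, had 15.1 and 11.6 CPM after cryoinjury, at most 2.06 CPM after resection and at most 0.0271 CPM in sham. SLC25A27, a mitochondrial carrier gene, had 20.5 and 4.19 CPM after cryoinjury, and lgals2b, a galectin gene, had 17.1 and 2.77 CPM. Neither exceeded 0.411 CPM in any resection or sham.

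Further members of high rank have roles outside these groups or roles that are less well known. ZPLD1, a zona pellucida domain gene, had 17.3 and 18.5 CPM after cryoinjury, 1.3, 3.81 and 1.70 CPM after resection, and 0 CPM in all shams. prr5l, whose product binds the kinase complex mTORC2, had 10.1 and 22.1 CPM after cryoinjury, 2.65, 2.80 and 0.588 CPM after resection, and 0.916, 0 and 0 CPM in sham. The choice of genes sets both cryoinjury libraries above all resections and shams. For prr5l the sham at 0.916 CPM lay above the lowest resection. zgc:122979 had 87.4 and 85.7 CPM after cryoinjury, 27.4, 4.82 and 6.94 CPM after resection, and 5.39, 24.8 and 13.9 CPM in sham. SLC43A2, an amino acid transporter gene, had 40.9 and 46.3 CPM after cryoinjury, 7.83, 4.71 and 21.9 CPM after resection, and 0.247, 0 and 0.0542 CPM in sham. The gene with no symbol ENSDARG00000103884, which ranked 2nd, had 11.7 and 12.2 CPM after cryoinjury, 1.97, 1.51 and 0.529 CPM after resection, and 0, 1.68 and 0 CPM in sham. rn7sk, the small nuclear RNA 7SK, had 10.6 and 7.80 CPM after cryoinjury, at most 0.432 CPM after resection, and 3.66, 2.26 and 1.25 CPM in sham. Like RPS29 and RPS28, rn7sk was lowest after resection. Of the 150 genes, 18 have no symbol.

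**Figure D2:**
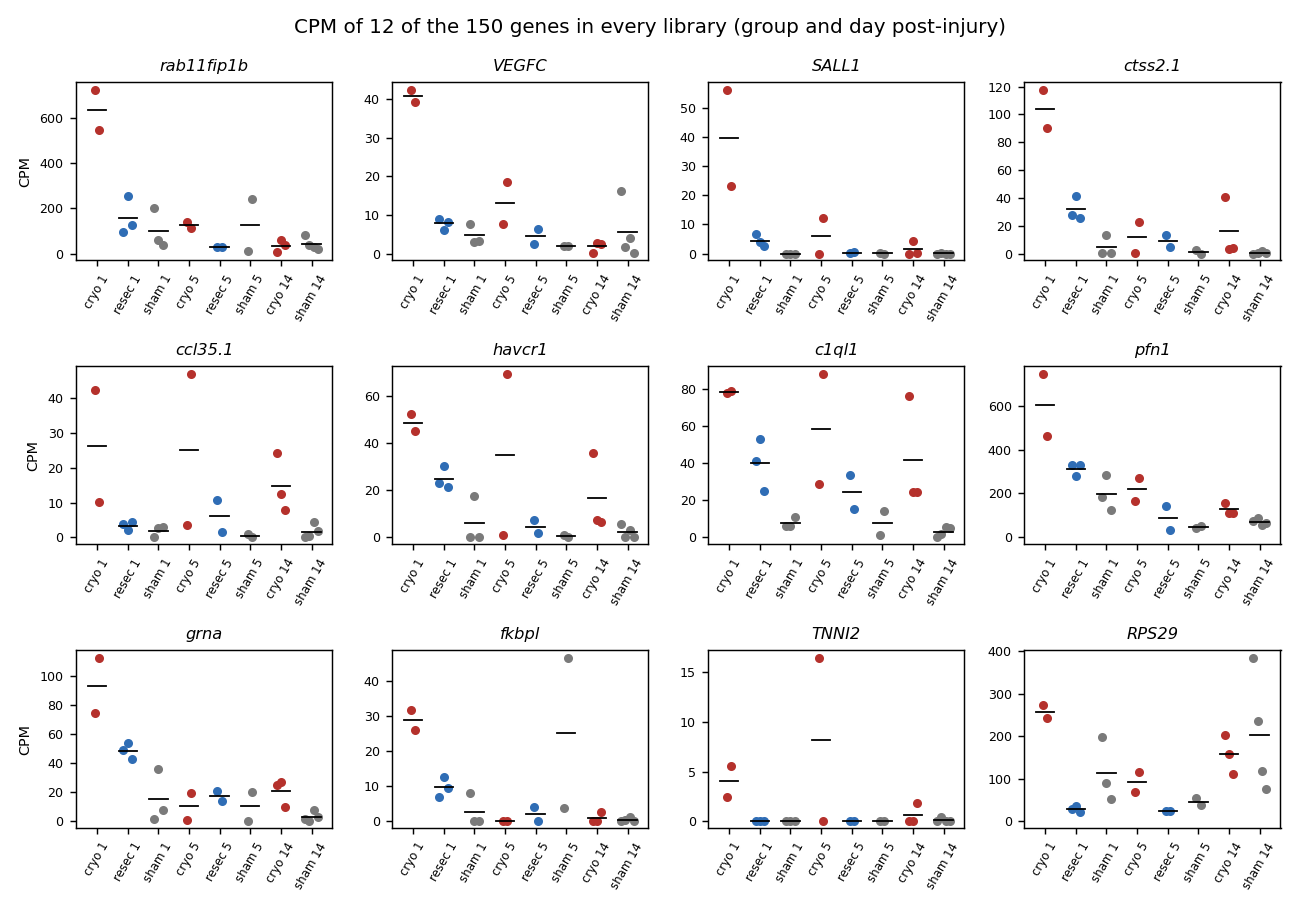
CPM on linear axes for 12 of the 150 genes, with 1 panel a gene, 1 point a library and a bar at each group mean, in red for cryoinjury, blue for resection and grey for sham, labelled by group and day post-injury. In every panel both cryoinjury points at 1 dpi lie above the resection and sham points of that day, as the choice of genes sets. VEGFC, rab11fip1b and ctss2.1 are below those points in all libraries of 5 and 14 dpi, while ccl35.1, havcr1 and c1ql1 reach or pass them in 1 cryoinjury library at 5 dpi.

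Resection and sham can be set side by side over the 150 genes, although both entered the rule. Every resection exceeded every sham for 48 of the 150 genes, or 32%, where 34.5% of all genes detected did. Every sham exceeded every resection for 16, or 10.7%, where 1.37% of all genes did. Of the ribosomal protein genes described above, RPS29 lies among the 16.

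At the later days the cryoinjury libraries had less of the 150 genes in sum than the 1 dpi values that selected them. The summed level was 20456 and 17824 CPM in the cryoinjury libraries at 1 dpi, 6652 and 12131 CPM at 5 dpi and 7982 to 10644 CPM at 14 dpi. At 5 dpi both cryoinjury sums exceeded both resection sums and overlapped the shams. Resection had 6484 to 7517 CPM at 1 dpi and 4722 and 3857 CPM at 5 dpi. Sham had 5130 to 9567 CPM at 1 dpi, 4422 and 9831 CPM at 5 dpi and 5818 to 10705 CPM at 14 dpi. For the median member the cryoinjury mean at 5 dpi was 23.2% of that at 1 dpi, and the mean at 14 dpi was 20.6%. Both cryoinjury libraries of 1 dpi exceeded both of 5 dpi for 117 genes, or 78.0%, where 10.8% of all genes did. They exceeded all 3 of 14 dpi for 117 genes too, where 9.42% of all genes did. They exceeded all other 19 libraries for 83 genes, or 55.3%, where 0.59% of all genes did. The rule used the 1 dpi values, so these counts are a description. VEGFC had 7.61 and 18.5 CPM in the cryoinjury libraries at 5 dpi and 0.244, 2.83 and 2.52 CPM at 14 dpi. rab11fip1b had 138 and 115 CPM at 5 dpi and 5.96, 59.3 and 38.9 CPM at 14 dpi. The 5 lysosomal genes summed to 302 and 612 CPM at 5 dpi and 222 to 348 CPM at 14 dpi after cryoinjury, and the 11 immune genes to 167 and 297 CPM at 5 dpi and 108 to 185 CPM at 14 dpi. The 11 ribosomal protein genes summed to 2659 and 4610 CPM at 5 dpi and 4101 to 5877 CPM at 14 dpi after cryoinjury, the 14 dpi values against 2909 to 6185 CPM in sham. Among single genes, the 14 dpi cryoinjury mean was 4.57% of the 1 dpi mean for VEGFC, 15.5% for ctss2.1 and 56.9% for ccl35.1. The cryoinjury mean at 5 dpi was below that of 1 dpi for 138 of the 150 genes, and prf1.5 and TNNI2 were among the exceptions, at 575% and 204%. f2 and apoc1 were at 0 in all 13 libraries of 5 and 14 dpi, whereas 74 members were detected in all of them.

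For 44 genes the highest library of the series was not a 1 dpi cryoinjury library. It was a 5 dpi cryoinjury library for 16 of them, among them ccl35.1, havcr1, c1ql1, prf1.5 and TNNI2. It was a 5 dpi sham for 10, with fkbpl, PRR12, VPS26A, POLDIP3 and acin1a among them, and a 14 dpi sham for 12. Those 12 were RPS19, rps27.2, RPS29, the small nuclear RNA gene rn7sk and 8 genes with no symbol. It was a 14 dpi cryoinjury library for 4 and a 5 dpi resection for 2, eno2 and zgc:165603.

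**Figure D3:**
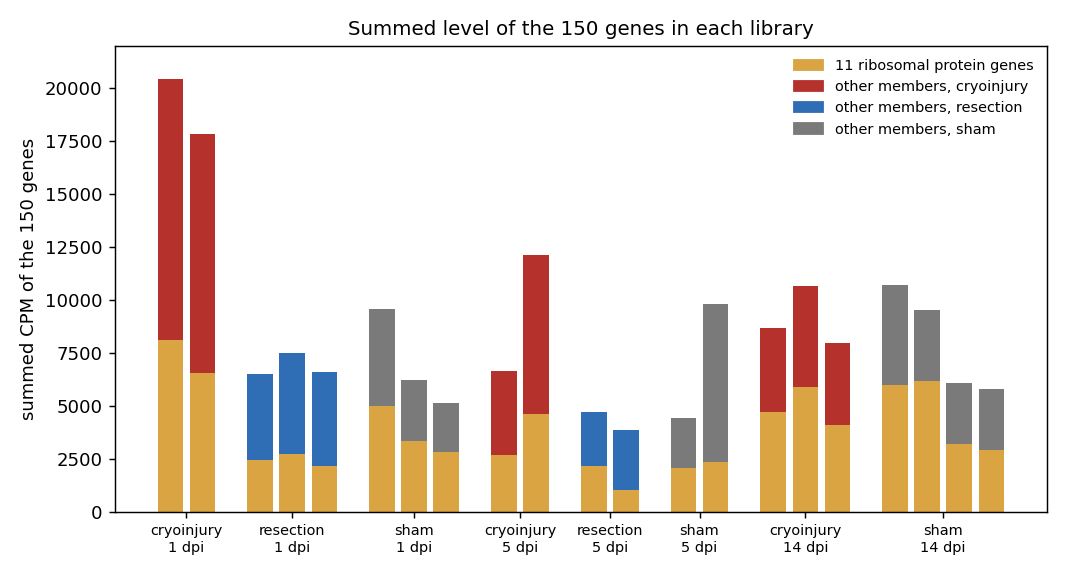
Summed CPM of the 150 genes, with 1 stacked bar a library in groups by injury and day, the lower yellow part for the 11 ribosomal protein genes and the upper part for the other 139 genes. The bars of the 1 dpi cryoinjury libraries reach 20456 and 17824 CPM, and no other bar passes 12131 CPM.

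At 5 dpi cryoinjury was compared with sham, which asks whether genes highest after cryoinjury at 1 dpi still differ from sham in hearts the rule did not use. No gene passed. With edgeR's quasi-likelihood test and Benjamini-Hochberg adjustment, 0 of 14286 genes tested (0%) had an adjusted p under 0.05, the smallest being 0.0617, and the smallest among the 115 members tested was 0.614. The 115 are those of the 150 that passed the filter on low counts. Of these, havcr1, hspb9, pfn1, ccl35.1 and prf1.5, or 5, were higher at an unadjusted p under 0.05, where 1.18% of all genes tested were, and 1 was lower, where 2.44% were. The median log2 fold change of the 115 was 0.50, against -0.01 over all genes, with 79 above 0 and 36 below. The members' median log2(CPM + 1) per library had a pooled SD of 0.67 between replicates. That is a spread of levels, not of fold changes. Both cryoinjury libraries exceeded both shams for 32 of the 115, or 27.8%, against 18% of all genes, and both were lower for 7, or 6.09%, against 13.5%. Over all 150 genes these counts were 36 and 8.

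havcr1 had 0.922 and 69.3 CPM in the cryoinjury libraries of 5 dpi and 0.911 and 0.185 CPM in sham, giving a log2 fold change of 5.76 (SE 2.28). Only cryoinjury replicate 4 stood clear of the shams. ccl35.1 had 3.46 and 46.9 CPM after cryoinjury and 0.860 and 0 CPM in sham, giving a log2 fold change of 5.69 (SE 2.61). pfn1 had 166 and 271 CPM after cryoinjury and 42.4 and 51.5 CPM in sham, giving a log2 fold change of 1.93 (SE 0.84). hspb9 had 27.7 and 23.1 CPM after cryoinjury and 1.01 and 0.0464 CPM in sham, and prf1.5 had 77.1 and 10.0 CPM and 2.58 and 3.80 CPM. For pfn1, hspb9 and prf1.5 both cryoinjury libraries stood clear of the shams. fkbpl, 1 of the genes highest after cryoinjury at 1 dpi, was at 0 in both cryoinjury libraries at 5 dpi and had 3.80 and 46.6 CPM in sham, at least 129.6-fold lower after cryoinjury with 3 counts per library as the floor. VAT1, a vesicle amine transport protein gene, had 45.4 and 115 CPM after cryoinjury and 204 and 208 CPM in sham, giving a log2 fold change of -1.66 (SE 0.82). POLDIP3 had 9.45 and 3.91 CPM after cryoinjury and 20.0 and 47.2 CPM in sham.

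The lysosomal genes were split at 5 dpi. CTSD had 43.0 and 195 CPM after cryoinjury, 110 and 78.3 CPM after resection, and 43.6 and 17.7 CPM in sham. ctss2.1 had 0.461 and 22.8 CPM after cryoinjury, 13.6 and 4.92 CPM after resection, and 2.28 and 0 CPM in sham. In both genes the cryoinjury replicates enclosed the resection values. The 5 lysosomal genes summed to 302 and 612 CPM after cryoinjury, 377 and 273 CPM after resection, and 142 and 242 CPM in sham. Cryoinjury replicate 4 exceeded replicate 1 for 96 of the 150 genes, and replicate 1 exceeded replicate 4 for 37. The macrophage marker list summed to 586 CPM in replicate 1 and 1906 CPM in replicate 4, against 973 and 383 CPM after resection and 126 and 735 CPM in sham. The fast skeletal muscle list summed to 33695 CPM in replicate 1 and 7634 CPM in replicate 4, against 9030 and 11226 CPM after resection and 11847 and 6318 CPM in sham. Within these sums ckma had 6490 and 5077 CPM after cryoinjury, 4803 and 6283 CPM after resection, and 6391 and 4136 CPM in sham. In the test against sham 21 of 23 macrophage markers and 22 of 28 fast skeletal muscle markers had a positive log2 fold change, with medians of 2.08 and 4.55, and 0 of either list passed. Of these, 5 and 16 markers had an unadjusted p under 0.05. No gene of any of the 15 lists passed with edgeR at 5 or 14 dpi. The part of cell makeup in the members' values was not tested.

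The values at 5 dpi rested on individual libraries. With 1 library left out, the lone sample left in a group is assumed to vary like the other group, so only medians are given. Without cryoinjury replicate 4 the median log2 fold change of the members tested was -0.35, against -0.95 over all genes. Without sham replicate 2 it was 1.48, against 0.74. Without cryoinjury replicate 1 or sham replicate 3 it was 0.70 and 0.50, against -0.22 and 0.07. DESeq2's Wald test called 191 genes (1.34%), of which fkbpl, hspb9 and havcr1 were members.

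Between cryoinjury and resection at 5 dpi, the contrast of injuries that the rule draws at 1 dpi, 0 of 14709 genes tested (0%) passed with edgeR, the smallest adjusted p being 0.869. Of 116 members tested 8 were higher at an unadjusted p under 0.05, against 1.35% of all genes, and 1 was lower, against 3.84%. The median log2 fold change was 0.46, against -0.06 over all genes, with 76 above 0 and 40 below. The members' median log2(CPM + 1) per library had a pooled SD of 0.43 between replicates. Their median log2 fold change was 0.0055 without cryoinjury replicate 4 and 1.06 without resection replicate 1, against -0.98 and 0.11 over all genes. Both cryoinjury libraries exceeded both resections for 40 of the 116, or 34.5%, against 16.3% of all genes, and were below both for 13, or 11.2%, against 20.1%. Over all 150 genes these counts were 43 and 15. rab11fip1b had 138 and 115 CPM after cryoinjury and 27.3 and 29.8 CPM after resection, giving a log2 fold change of 2.01 (SE 0.58). si:dkey-238c7.12 had 578 and 2250 CPM after cryoinjury and 345 and 139 CPM after resection, giving a log2 fold change of 2.31 (SE 0.82). RPS29 had 69.8 and 115 CPM after cryoinjury and 25.3 and 23.4 CPM after resection, giving a log2 fold change of 1.77 (SE 0.64). The groups did not overlap for these 3 genes. All 11 ribosomal protein genes among the members had a positive log2 fold change, with a median of 0.95, as did 70 of the 72 other ribosomal protein genes tested, with a median of 1.03. None passed, and 11 of the 72 were higher at an unadjusted p under 0.05. The gene with no symbol ENSDARG00000103884 had 14.4 and 12.2 CPM after cryoinjury and 0 and 0.0945 CPM after resection. si:dkey-258f14.3 was at 0 in both cryoinjury libraries and had 2.53 and 3.12 CPM after resection, at least 14.5-fold lower after cryoinjury. rlbp1b, a retinaldehyde-binding protein gene, had 0 and 0.264 CPM after cryoinjury and 7.35 and 2.17 CPM after resection. AAGAB had 0 and 0.633 CPM after cryoinjury and 16.6 and 5.29 CPM after resection. With cryoinjury replicate 1 left out the members' median log2 fold change was 0.65, against -0.24 over all genes. With resection replicate 2 left out it was 0.30, against 0.10. DESeq2's Wald test called 123 genes (0.836%), with ENSDARG00000103884 the only member.

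Resection was compared with sham at 5 dpi, with the same sham libraries as for cryoinjury. With edgeR 0 of 15423 genes tested (0%) passed, the smallest adjusted p being 0.0881. Of 117 members tested 0 were higher at an unadjusted p under 0.05, against 0.746% of all genes, and 5 were lower, against 2.52%. The median log2 fold change was 0.22, against 0.08 over all genes, with 64 above 0 and 53 below. Both resections exceeded both shams for 23, or 19.7%, against 20.1% of all genes, and were below both for 8, or 6.84%, against 11.2%. The 5 lower members were PRR12, the retromer gene VPS26A, si:dkey-238c7.12, rab11fip1b and acin1a. PRR12 had 7.93 and 6.71 CPM after resection and 7.84 and 88.2 CPM in sham, with sham replicate 3 far above. VPS26A had 8.94 and 8.98 CPM after resection and 13.0 and 79.9 CPM in sham. acin1a had 410 and 1078 CPM after resection and 614 and 3811 CPM in sham. With sham replicate 3 left out the log2 fold change of rab11fip1b was 1.19, where it was -2.54 with both shams. SLC43A2 had 4.49 and 6.15 CPM after resection and 0.455 and 0 CPM in sham, and ANKRD1 had 36.9 and 23.6 CPM after resection and 5.82 and 0 CPM in sham, giving a log2 fold change of 3.36 (SE 1.76). With sham replicate 2 left out the members' median log2 fold change was 1.05, against 1.00 over all genes. With sham replicate 3 left out it was -0.01, against 0.12. With resection replicate 1 or 2 left out it was -0.46 and 0.05, against -0.08 and -0.18. DESeq2's Wald test called 82 genes (0.532%) and 0 members.

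At 14 dpi cryoinjury was compared with sham, with round and injury partly confounded. With edgeR 0 of 15020 genes tested (0%) passed, the smallest adjusted p being 0.113 over all genes and 0.446 among 123 members tested. Of these members 7 were higher at an unadjusted p under 0.05, or 5.69%, against 3.02% of all genes, and 3 were lower, or 2.44%, against 2.7%. The median log2 fold change was 0.08, against -0.01 over all genes, with 68 above 0 and 55 below. All 3 cryoinjury libraries exceeded all 4 shams for 8 members, or 6.5%, against 4.65% of all genes, and were below all for 2, or 1.63%, against 3.46%.

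The 7 higher members at 14 dpi were c1ql1, ctss2.1, grna, rps27l, pfn1, havcr1 and ccl35.1, all without overlap between the groups. c1ql1 had 76.5, 24.4 and 24.5 CPM after cryoinjury and 0.151, 1.75, 5.52 and 5.09 CPM in sham, giving a log2 fold change of 3.72 (SE 0.91, edgeR adjusted p 0.446). It was higher in 3 of 3 cryoinjury libraries, and DESeq2's Wald test called it with an adjusted p of 0.00512. Over all alternatives its adjusted p ranged from 2.68e-06 with no filter to 1 without cryoinjury replicate 1. ctss2.1 had 41.0, 2.98 and 4.17 CPM after cryoinjury and 0.0216, 0.213, 2.03 and 0.664 CPM in sham, giving a log2 fold change of 4.53 (SE 1.37). grna had 24.7, 26.6 and 10.1 CPM after cryoinjury and 1.38, 0.426, 7.82 and 2.77 CPM in sham, giving a log2 fold change of 2.77 (SE 0.89). In c1ql1 and ctss2.1 cryoinjury replicate 1 was well above the other replicates, whereas in grna replicate 3 was the low one. havcr1 had 36.0, 7.27 and 6.72 CPM after cryoinjury and 5.73, 0.0852, 3.07 and 0.184 CPM in sham. ccl35.1 had 24.3, 12.5 and 7.97 CPM after cryoinjury and 0, 0.384, 4.4 and 1.73 CPM in sham. pfn1 had 159, 111 and 113 CPM after cryoinjury and 73.2, 89.5, 56.4 and 64.0 CPM in sham, giving a log2 fold change of 0.82 (SE 0.34). The macrophage marker list, which holds grna and havcr1, summed to 557 to 1354 CPM after cryoinjury and 178 to 302 CPM in sham, and 22 of 25 markers tested had a positive log2 fold change, with a median of 1.78 and 0 passing. Its part in these values was not tested. The fast skeletal muscle list had a median log2 fold change of -0.04.

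The 3 members lower at an unadjusted p under 0.05 at 14 dpi were HAPSTR1 and a pair of genes with no symbol, and rn7sk lay just past that limit. rn7sk, the 7SK small nuclear RNA that restrains transcription elongation, had 8.89, 10.5 and 4.60 CPM after cryoinjury and 41.7, 19.6, 14.7 and 7.60 CPM in sham, so the groups overlapped. ENSDARG00000081369 had 7.15, 5.19 and 2.94 CPM after cryoinjury and 78.7, 43.5, 18.6 and 5.38 CPM in sham, giving a log2 fold change of -2.81 (SE 0.78). With round as a covariate the log2 fold change was -0.26 for ENSDARG00000081369, -0.10 for rn7sk and -0.67 for ENSDARG00000083312, and with round 2 libraries alone it was -0.27, -0.11 and -0.68. ENSDARG00000083312 had 1.12, 1.09 and 0.886 CPM after cryoinjury and 17.7, 13.3, 6.15 and 1.44 CPM in sham. For these 3 genes the round 2 sham was the lowest sham and the nearest to the cryoinjury libraries of that round. HAPSTR1 had 6.35, 5.28 and 9.35 CPM after cryoinjury and 35.3, 11, 11.5 and 19.5 CPM in sham, giving a log2 fold change of -1.49 (SE 0.62). With the 3 cryoinjury libraries and 1 sham of round 2 alone, 1 gene passed and no member. The members' median log2 fold change was then 0.44, as was that of all genes. With round as a covariate 0 genes passed, and the members' median was 0.42 against 0.27. DESeq2's Wald test called 94 genes (0.626%), with ENSDARG00000081369 and c1ql1 the members.

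**Figure D4:**
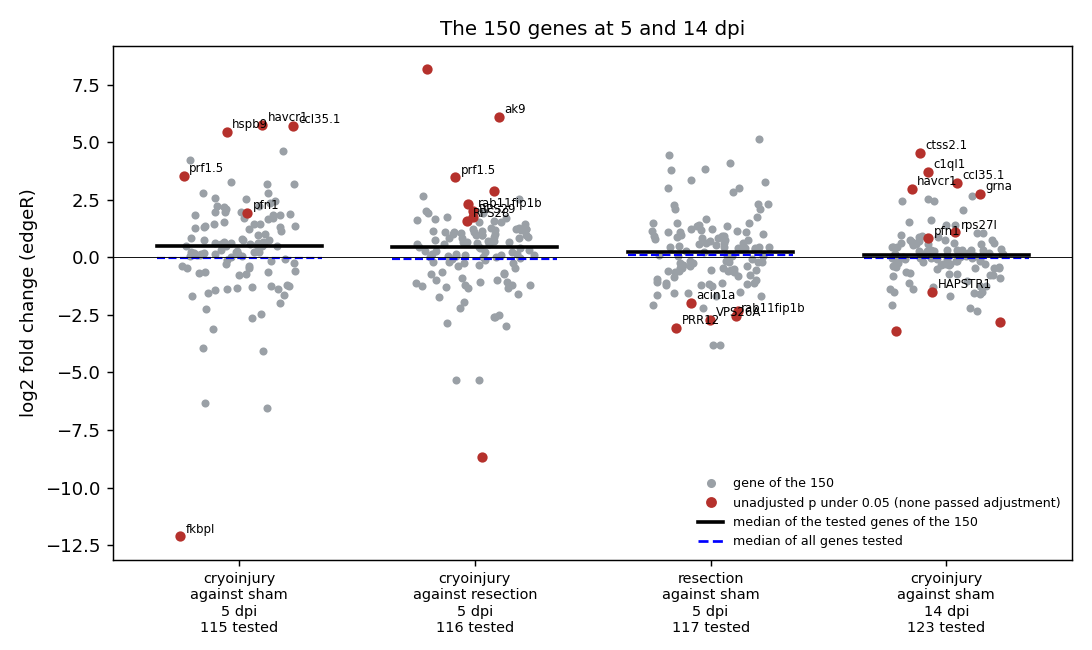
Log2 fold change from edgeR (y axis) of the members tested in each of the 4 comparisons at 5 and 14 dpi, with 1 point a gene, the members' median as a black line, the median of all genes tested as a dashed blue line and a red point where the unadjusted p was under 0.05. The members' medians are 0.50, 0.46, 0.22 and 0.08 from left to right, and no gene passed after adjustment. The value of fkbpl against sham at 5 dpi and that of the lowest point against resection are fits to a group at 0 and are no bounds.

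Some members stood above sham at both later days. In 6 of them, ccl35.1, RAB11FIP4, havcr1, c1ql1, pfn1 and rps27l, all cryoinjury libraries exceeded all shams at 5 dpi and at 14 dpi. Of all genes tested 18% did so at 5 dpi and 4.65% at 14 dpi. The share at both days was not computed, so whether the members exceed it is not known. For havcr1 the margin at 5 dpi was narrow, as only cryoinjury replicate 4 stood clear of the shams. rps27l had 144 and 230 CPM after cryoinjury and 43.1 and 49.6 CPM in sham at 5 dpi. At 14 dpi it had 190, 120 and 92.7 CPM after cryoinjury and 48.0, 55.1, 57.7 and 84.7 CPM in sham. Of 110 members tested at both days, 44 had positive and 15 negative fold changes at both, 33 were positive at 5 dpi and negative at 14 dpi, and 18 the reverse. The shares of all genes with these directions at both days were not computed. At 5 dpi 68.7% of members tested and 49.65% of all genes were positive, and at 14 dpi 55.3% and 49.4%. The difference between the days was tested as an interaction with edgeR in 1 fit of 17979 genes, of which 0 (0%) passed, the smallest adjusted p being 0.53 over all genes and 0.648 among 136 members. At an unadjusted p under 0.05, 4 members had a higher fold change at 14 dpi, against 5.06% of all genes, and 1 a lower one, against 2.38%. The 4 were fkbpl, VAT1, POLDIP3 and EXD2. VAT1 had 157, 164 and 116 CPM after cryoinjury and 119, 151, 116 and 133 CPM in sham at 14 dpi, so its groups overlapped there. The members' median was -0.53, against 0.19 over all genes. DESeq2's Wald test called 176 genes (0.979%) and 0 members.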

How the data were processed

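Raw read counts per gene from 21 libraries of biotagged nuclei were analysed as deposited. The authors mapped paired reads with STAR 2.4.2a to the danRer10 build, counted them per gene with featureCounts and deposited the counts without normalisation. In the count table, 2 of 23 columns could be matched to no sample and stayed out, as did 1 of 31953 genes, which had missing values. Libraries were grouped by their labels. The labels do not say whether replicates are separate animals, though the study's methods give 1 heart per sample. The p-values measure the spread between these samples. The ranking left out 15 further genes by ID. Symbols came from a table of gene names for 130 of the 150 genes and from the authors' names for 2 more.

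Groups at 5 and 14 dpi were compared with edgeR 4.0.16 (limma 3.58.1, R 4.3.3). Each quasi-likelihood fit held only the groups of its comparison, with TMM factors and the filterByExpr filter on low counts, and p-values were adjusted by Benjamini-Hochberg over all genes tested (threshold 0.05). The SE beside an edgeR log2 fold change is its absolute value over the square root of the test's F statistic. It thus restates the test and is no separate estimate of spread. CPM were taken on the column total. No test compared the 1 dpi libraries, which entered only an alternative, the single fit of all groups. The sources used here name no molecular identifiers, and floors of 3 counts cover counting error only. Alternatives were DESeq2 1.42.0, its size factors in edgeR, no filter, a minimum of 10 counts, a single fit of all groups, the round, a replicate block, and each library left out. The fits were tested on simulated data.

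Members and gene lists were chosen with earlier results of these data known. Genes were named from the members on a list, the 15 ranked highest with a symbol, the 3 on each side of rank 150, the 10 highest after cryoinjury at 5 and at 14 dpi, and the 5 with the smallest p in each direction of each comparison. Other genes were named after their values were seen. At most 2 genes with no symbol were named per direction and comparison.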

Additional observations from a re-analysis of the deposited data

Results flagged for a closer look

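Among the 4 shams of 14 dpi, 58 named members were checked for a library far from the other shams, and 9 had one. Chance alone gives about 1 group in 20, a rate that does not hold where the other shams are at 0, since any count then stands apart. That is so for myhz1.1, myhz1.3, SALL1 and ANKRD1, and the values of myhz1.1 and myhz1.3 are 1 count each. In sham replicate 2 of round 1, SLC25A27 had 1.19 CPM, TNNI2 0.426 CPM, SALL1 0.256 CPM, ANKRD1 0.256 CPM and myhz1.3 0.0426 CPM, against at most 0.258 CPM in the other shams. In sham replicate 3 of round 1, ENSDARG00000103884 had 3.98 CPM and SYCP1 2.58 CPM, against at most 0.369 CPM in the others. In sham replicate 1 of round 1, myhz1.1 had 0.0216 CPM against 0 CPM, and VPS26A had 41.0 CPM against 11.3 to 16.3 CPM. All but VPS26A had under 4 CPM in each of the 4 shams.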

How the results depend on the processing

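The choice of genes depended on the 1 dpi libraries and on the scale. Of the 150 genes 95 stayed with TMM-normalised CPM, 24 with the mean of the cryoinjury libraries, 40 with shams only and 55 with resections only, and between 13 and 139 stayed with each library left out. With a pseudocount of 0.1 or 10 CPM 118 and 126 stayed. At 5 and 14 dpi, where edgeR passed 0 genes in all 5 comparisons, DESeq2's Wald test called 191 genes and 3 members (cryoinjury against sham, 5 dpi), 123 and 1 (cryoinjury against resection), 82 and 0 (resection against sham), 94 and 2 (cryoinjury against sham, 14 dpi) and 176 and 0 (interaction). In the same order, no filter gave 64 and 1, 60 and 0, 46 and 0, 172 and 3, and 118 and 1. A minimum of 10 counts in each library gave 1, 11, 0, 5 and 0 genes and 0 members. All 21 libraries in 1 fit gave 2 genes at 14 dpi and 0 in the other 4, and DESeq2's size factors gave 0 in all 5, with 0 members for either. Leaving out 1 library gave 1 to 261 genes and 0 to 1 members, 30 to 1437 and 0 to 10, 1 to 1599 and 0 to 13, and 0 to 2 and 0 members in the first 4 comparisons. The cause was not tested. With both shams si:dkey-238c7.12, rab11fip1b and acin1a were lower after resection at 5 dpi, and with each library left out in turn their log2 fold changes ranged from -3.27 to 0.27, -3.41 to 1.19 and -2.75 to 0.16. The gene of rank 113, which has no symbol, had a log2 fold change of 0.047 at 14 dpi with round as a covariate and 0.035 with round 2 libraries only, where 1 gene passed. Under the alternatives 376 other log2 fold changes kept their direction and side of the threshold, though some shrank, as for ENSDARG00000081369 to -0.26 with round as a covariate, and 22 more kept their direction and passed the threshold. The replicate block at 14 dpi gave 0 genes and 0 members, with 660 genes at an unadjusted p under 0.05 against 859 without it. Same-numbered libraries deviated with correlations of -0.03, 0.01, 0.003 and 0.03, and those with different numbers with -0.07 to 0.06. No pairing by number was seen, and not every library correlated best with its own number. The check cannot settle it, since all but the last same-numbered pair set a cryoinjury library of round 2 beside a sham of round 1. No paired analysis was possible because the groups compared at 5 dpi share fewer than 2 replicate numbers, and the interaction includes them. Depth limits the 12 genes under 1 CPM in a cryoinjury library at 1 dpi.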
